A study of Mus musculus with 12 samples.

Results

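The RNA-seq of mouse liver covered many gene models that carry only a serial name, a Gm number or a clone name ending in Rik. Described here are 176 of them, picked by a rule on their difference between control livers and livers labelled as lacking both REV-ERBs (double knockout, DKO). The table held 48537 genes, of which 25519 had such a name and 3167 of these were at least 400 bases long with a mean of at least 2 TPM (an abundance per transcript length, in which every library sums to one same total). The 176 models were chosen from the 3167 by their values: the log2 ratio of mean TPM + 1 in DKO livers to that in control livers was at least 0.7 in size, and the 4 DKO values did not overlap the 4 control values. Of these, 87 were higher and 89 lower in DKO livers. This difference chose the models, so it is described below and not tested. limma called 116 of the 176 in it, 58 in each direction, beside a background of 5.33% of all genes (2.99% higher and 2.34% lower), and nothing is read from that count. Just inside the limit lay Gm5910 at 0.70, Gm17802 at 0.71, Gm6611 at -0.70 and Gm48602 at -0.73, and just outside it lay Gm5558 at 0.69, Gm7832 at 0.70, A930033H14Rik at -0.69 and Gm46565 at -0.69.

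All livers were taken at ZT10, where ZT counts hours of the light cycle from its start, and each group had 4 livers. The control livers were labelled wildtype and YFP, the DKO livers REV-ERBs double-knockout and YFP, and the re-expression livers were DKO livers given REV-ERBalpha in its wild-type form. The labels used here state no age, sex, promoter or Cre line, although Cre stands in the column names of the DKO livers, so an action of Cre and the loss of REV-ERB cannot be told apart. REV-ERBalpha and REV-ERBbeta are nuclear receptors that repress transcription from ROR elements as part of the circadian clock. Serially named models are mostly long noncoding RNAs, antisense RNAs read from the strand opposite a gene, pseudogenes, which are copies of genes that have lost their function, and TEC models, a provisional class of single blocks of evidence that still await an experiment. Few have a known role, and they are often described by the named gene beside or around them.

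RNA of the targeted genes was not lower in the livers labelled DKO. Nr1d1, which encodes REV-ERBalpha, was at 64.1 to 76.2 TPM in control livers, 74.8 to 91.7 in DKO livers and 171 to 217 in re-expression livers. Nr1d2, which encodes REV-ERBbeta, was at 82.3 to 111, 83.7 to 99.6 and 84.4 to 119 TPM. Whether gene-level reads fall outside a deleted stretch was not tested, so each direction below is between labels. Of 6 clock genes with ROR elements, 5 were called higher in DKO livers. Of 15 clock genes with E-boxes or D-boxes, 7 were called lower and none higher. Arntl, which encodes BMAL1, was at 0.562 to 1.02 TPM in control livers and at 18.3 to 21.4 in DKO livers. The libraries held between 5621667 and 6906221 reads in genes. Hepatocyte markers summed to 36810 to 41224 TPM in control and 39123 to 41856 in DKO livers. Summed stellate cell markers were 137 to 182 TPM in control and 222 to 246 in DKO livers, sinusoidal endothelial markers 176 to 196 and 211 to 264, and red blood cell markers 276 to 382 and 400 to 686 (exact two-sided permutation p = 0.0286 for each, the smallest that 4 against 4 livers can give, and adjusted p = 0.0762 over the 8 lists). Kupffer cell markers summed to 372 to 887 TPM in control and 388 to 452 in DKO livers (exact permutation p = 0.229), neutrophil markers to 11.3 to 54.0 and 4.73 to 14 (p = 0.257 by the same exact test), cholangiocyte markers to 74.5 to 105 and 76.7 to 86.0 and T and B cell markers to 4.10 to 7.32 and 3.98 to 9.35. No gene of these lists was at 0 in every library, and their part in the levels below was not tested. In whole tissue, fewer cells of a type and less RNA per cell cannot be told apart.

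Control livers 1 and 2 stood apart from control livers 3 and 4. Over the 612 TEC models that were not chosen, summed levels were 4457 and 3955 TPM in control livers 1 and 2 and 2943 and 2835 in control livers 3 and 4, while the DKO livers ran from 2657 to 3245. Over the 497 antisense models that were not chosen, they were 5579, 4998, 4166 and 4202 TPM in the control livers and 3794 to 4478 in the DKO livers. For the 89 lower models the median log2 ratio was -1.17 with all control livers and -0.92 with control livers 3 and 4 alone, where 63 of the 89 stayed past 0.7. For the 87 higher models it was 1.10 and 1.22, and 79 stayed past 0.7. Many of the models were also read rarely: the median over models was 13.5 reads per library, 65 of the 176 averaged under 10 and 29 averaged at least 50.

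Promoter sequence was listed in RefSeq for 42 of the 176 models (GRCm38.p6, 250 bases before to 50 after a start site). A few of them are shown because they hold the element that REV-ERB receptors bind, TAGGTCA, or the E-box CACGTG bound by BMAL1 with CLOCK or NPAS2; capitals mark these letters on either strand. Gm30262 (chr10:111599475-111599774, plus strand, 1 of 7 listed starts) and Gm20616 (chr19:26623356-26623655, minus strand) were lower in DKO livers and hold TAGGTCA or its reverse complement. D630024D03Rik (chr11:31824498-31824797, minus strand) was higher and 1700112D23Rik (chr3:28781073-28781372, minus strand) lower, and both hold CACGTG.
Gm30262: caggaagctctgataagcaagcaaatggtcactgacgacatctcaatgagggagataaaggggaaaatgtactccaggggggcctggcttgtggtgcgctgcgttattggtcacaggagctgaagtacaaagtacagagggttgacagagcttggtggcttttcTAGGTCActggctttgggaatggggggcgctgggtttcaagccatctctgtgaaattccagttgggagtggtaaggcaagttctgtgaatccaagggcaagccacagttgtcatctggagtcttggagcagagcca
Gm20616: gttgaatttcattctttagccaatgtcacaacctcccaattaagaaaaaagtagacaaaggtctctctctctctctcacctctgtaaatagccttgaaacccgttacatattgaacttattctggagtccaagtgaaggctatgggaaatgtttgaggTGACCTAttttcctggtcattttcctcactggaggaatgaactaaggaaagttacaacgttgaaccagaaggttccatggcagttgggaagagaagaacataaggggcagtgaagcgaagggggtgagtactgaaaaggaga
D630024D03Rik: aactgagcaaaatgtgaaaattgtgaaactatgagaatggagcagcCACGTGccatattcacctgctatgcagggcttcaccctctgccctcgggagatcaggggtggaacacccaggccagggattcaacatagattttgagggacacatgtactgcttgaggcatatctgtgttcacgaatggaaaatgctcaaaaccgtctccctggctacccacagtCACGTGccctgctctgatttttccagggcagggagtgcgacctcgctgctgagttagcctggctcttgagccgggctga
1700112D23Rik: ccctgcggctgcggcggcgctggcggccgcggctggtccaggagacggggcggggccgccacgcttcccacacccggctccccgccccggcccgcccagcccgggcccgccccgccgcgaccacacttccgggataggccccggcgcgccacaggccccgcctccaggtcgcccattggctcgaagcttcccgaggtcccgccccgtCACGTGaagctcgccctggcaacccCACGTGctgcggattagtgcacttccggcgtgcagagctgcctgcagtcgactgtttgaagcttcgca

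TAGGTCA, searched on both strands, was in the promoters of 2 of the 42 models, 4.76%, against 2.97% of 27025 genes with a listed promoter. The shorter half-site AGGTCA, which lies within it, was in 9 of 42, 21.4% against 18.1%. CACGTG, which reads the same on both strands, was in 4 of 42, 9.52% against 8.09%. A match is a description of letters and not of binding. Both models with TAGGTCA were lower in DKO livers, Gm30262 with 132 ± 12.9 TPM in control and 67.1 ± 23 in DKO livers and Gm20616 with 7.45 ± 1.84 and 2.97 ± 0.689 (SD, n = 4 for these and all means below).

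The classes of the annotation (GENCODE release M21) split by direction. Pseudogenes made up 58 models, 40 of them higher and 18 lower in DKO livers. Antisense RNAs numbered 40, with 10 higher and 30 lower. Other long noncoding RNAs also numbered 40, with 23 higher and 17 lower, TEC models 28, with 9 higher and 19 lower, and protein coding models 10, with 5 in each direction. Across all 3167 models the DKO mean was above the control mean in 64.0% of pseudogenes, 32.0% of antisense RNAs and 30.5% of TEC models, beside 45.9% of all. Other long noncoding RNAs went the other way, with the DKO mean above the control mean in 40.4% of all 560 although 23 of the 40 chosen were higher. These class shares include the chosen models and use the mean of all control livers. In antisense and TEC models that were not chosen, summed levels of control livers 3 and 4 lay within the DKO range. With all control livers, the exact two-sided permutation p for these sums was 0.286 for antisense and 0.343 for TEC models. Higher models mostly lay apart from named coding genes (53 of 87). Lower models mostly overlapped one (65 of 89), 19 of them within the introns of a gene on the same strand. Reads of such an intronic model and of unspliced host RNA cannot be told apart. The places of all 3167 models were not counted, and antisense RNAs lie opposite a gene by definition. No trait of direction is therefore read from these places. The library kit kept strand, but whether reads were counted by strand is not stated in what was used here, so levels of antisense models are uncertain as well.

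**Figure D1:**
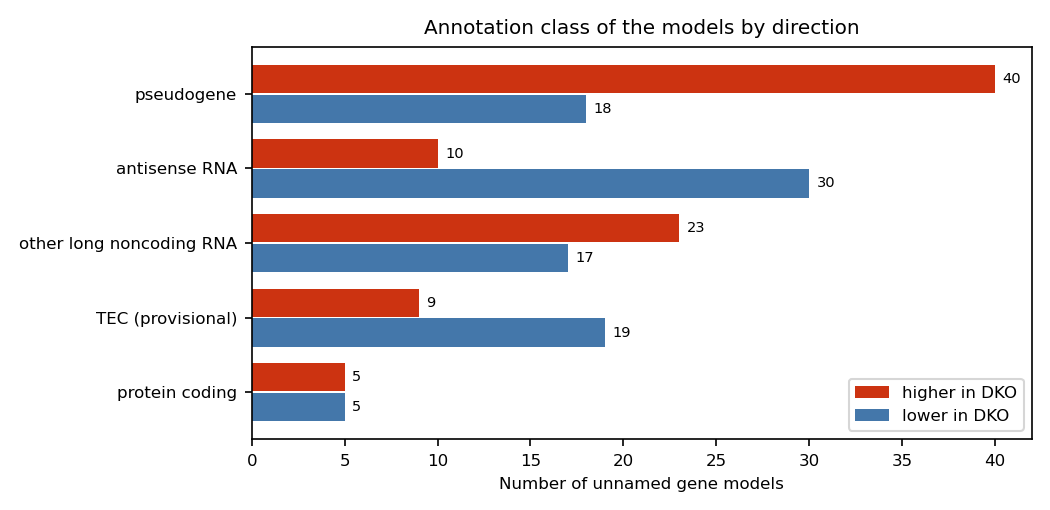
Number of unnamed gene models in each annotation class, with 1 bar for models higher and 1 for models lower in DKO than in control livers. Pseudogenes were mostly higher (40 against 18) and antisense RNAs mostly lower (10 against 30), among models that this same difference chose.

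The tested named gene nearest to each model, found by position alone, was tested with limma over all 17957 tested genes. The 176 models had 161 distinct nearest genes, of which 41 were called between DKO and control livers, 25.5% beside a background of 6.29% over all named genes. Of 79 genes nearest to a higher model, 18 were called higher, beside a background of 3.54%, and 1 lower. Of 83 genes nearest to a lower model, 23 were called lower, beside 2.76%, and none was called higher. These genes were tested in the same control and DKO livers that chose the models, and overlapping genes may share reads. Their counts and directions are therefore not independent of the choice. The median log2 difference was 0.14 for genes beside higher models, -0.28 beside lower models and 0.00 over all tested genes. Genes that overlapped their model were called in 31 of 86 cases, in 21 of 63 where no exon bases were shared, and genes that did not overlap it in 10 of 75. With control livers 3 and 4 alone 33 nearest genes were called, 30 of them among the 41.

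**Figure D2:**
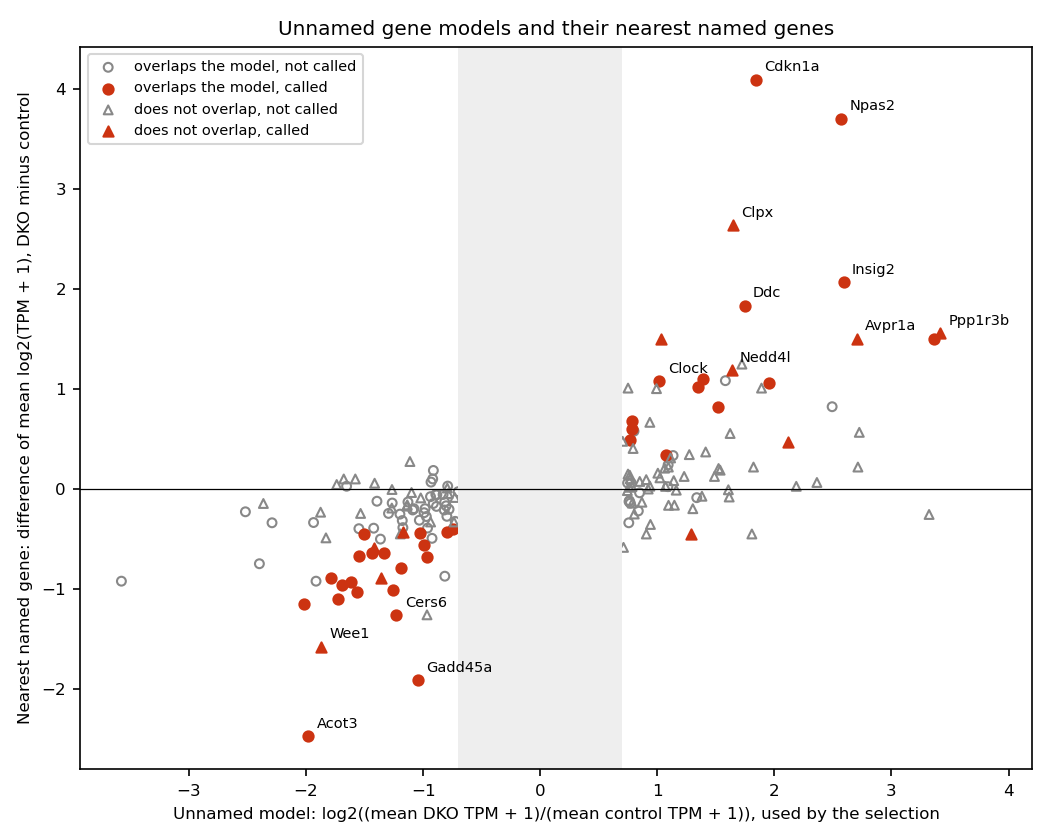
Log2 ratio of each unnamed model (horizontal, used by the selection, with the grey band below 0.7 in size left empty by it) against the log2 difference of its nearest named gene, DKO minus control (vertical), with red for adjusted p under 0.05, circles for overlapping and triangles for non-overlapping genes. Called genes lie in the upper right or lower left, with 1 exception, Slc2a2 beside Gm6505, where the same livers chose the models.

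Among higher models, 3 lay at Avpr1a, the vasopressin receptor gene on chromosome 10. Gm36041 (chr10:122386892-122435033, plus strand) was at 3.46, 4.46, 3.13 and 4.70 TPM in control livers, 35.8, 26.6, 33.9 and 28.3 in DKO livers and 21.4, 20.3, 16.7 and 20.4 in re-expression livers. The 3 groups did not overlap, the re-expression livers lay between the other groups, and the DKO mean was 7.91-fold the control mean. Gm48877, on the opposite strand across Avpr1a, was at 1.14 to 1.31 TPM in control livers, 17.5 to 28.0 in DKO livers (17.8-fold higher by the means) and 7.96 to 17.6 in re-expression livers. Gm48878, which lies 680 bases from Avpr1a, was at 0.899 ± 0.258, 2.88 ± 0.632 and 2.52 ± 0.715 TPM. Avpr1a itself rose from 14.1 ± 1.84 to 41.4 ± 3.19 TPM, a log2 difference of 1.5 (SE 0.10, adjusted p = 6.15e-06), and was at 40.0 ± 2.5 in re-expression livers.

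Models in or beside clock genes followed. Gm3617, a pseudogene within an intron of Npas2 on the same strand, was at 1.17, 0, 0 and 0 TPM in control livers, 9.76, 10.8, 2.45 and 3.78 in DKO livers and 2.41, 1.15, 1.10 and 1.12 in re-expression livers, on 2.42 reads per library. Its DKO values were the highest of the 3 groups without overlap. Npas2, a partner of BMAL1, rose from 0.0713 ± 0.0943 to 13 ± 2.3 TPM (log2 difference 3.70, adjusted p = 3.25e-07) and fell to 2.48 ± 0.613 with re-expression (log2 difference -2.01, adjusted p = 0.00063, or 0.0572 with a pseudocount of 0.1). Gm43658 lies within introns of Clock on the same strand and was at 0.575 to 3.14 TPM in control and 3.4 to 6.10 in DKO livers. Clock rose by a log2 difference of 1.08 (adjusted p = 0.000811). On the lower side, Gm45819 lies 306 bases from Wee1, a kinase that holds back cell division, and was at 13.8 ± 2.83, 3.06 ± 0.655 and 6.68 ± 1.17 TPM, with no overlap among the 3 groups. Wee1 fell by 1.58 (adjusted p = 0.00016). Gm43658 was singled out for its host gene after its values were seen, as were Gm32017, Gm19219, E230016M11Rik, Gm37666, Gm11713, Gm11714, Gm7466, Gm11633 and Gm6505 below.

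Higher models also stood beside metabolic and stress genes. Gm37174, opposite an intron of Insig2, an endoplasmic reticulum protein that restrains sterol synthesis, was at 0.874, 2.08, 3.04 and 2.08 TPM in control livers, 17.4, 25.7, 8.38 and 17.3 in DKO livers and 12, 12.6, 21.1 and 18.7 in re-expression livers. DKO and re-expression livers overlapped and both lay above the controls. Insig2 rose by 2.06 (SE 0.16, adjusted p = 2.86e-05). Gm45301 had no read in any control liver and was at 6.37 to 16.6 TPM in DKO livers, at least 21.9-fold higher when 3 reads over the control group are taken as the floor. It lies 19332 bases from Ppp1r3b, a subunit that directs a phosphatase to glycogen, which rose by 1.55 (adjusted p = 0.00534). 1700023B13Rik shares 273 exon bases with Cdkn1a, the cell cycle inhibitor p21, on the opposite strand and was at 0, 0.468, 0 and 0 TPM in control and 2.51 to 3.71 in DKO livers. Cdkn1a rose by 4.09 (adjusted p = 1.45e-08), the largest difference among the nearest genes.

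1700042O10Rik, opposite Ddc, the aromatic amino acid decarboxylase gene, was at 2.46 ± 1.39, 10.6 ± 4.63 and 11.3 ± 5.02 TPM in control, DKO and re-expression livers, and Ddc rose by 1.83 (adjusted p = 0.000811). Gm29966, the most abundant model of all with 3774 reads per library, was at 72.2, 124, 71.9 and 61.7 TPM in control livers, 228, 318, 209 and 280 in DKO livers and 266, 282, 251 and 312 in re-expression livers. Control livers were below both other groups without overlap, and the DKO mean was 3.13-fold the control mean. It lies 26459 bases from Nedd4l, a ubiquitin ligase gene, which rose by 1.19 (adjusted p = 0.000736). Gm32017, opposite the hepatic lipase gene Lipc, was at 5.17 ± 3.51 and 16.7 ± 4.23 TPM, and Lipc rose by 0.81 (adjusted p = 0.000177). Avpr1a, Npas2, Clock, Insig2, Ppp1r3b, Cdkn1a, Ddc, Nedd4l and Lipc were called between DKO and control livers in each of the 19 alternatives that were run.

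Other higher models had no called gene beside them. D630024D03Rik was at 2.13, 5.51, 4.01 and 5.02 TPM in control livers, 27.9, 42.3, 40.4 and 22.0 in DKO livers and 13.5, 13.2, 14.6 and 15.1 in re-expression livers, again 3 groups without overlap. Its nearest gene, Cpeb4, had a log2 difference of 0.56 (adjusted p = 0.0797). On chromosome 12, Gm31508, 4833405L11Rik and Gm31333 lie within a stretch where neighbours are 62613 and 32317 bases apart. All were higher in DKO livers, going from 0.259 to 1.12 TPM in control livers to 8.76 to 10.9 in DKO livers for the first, from 0.222 ± 0.256 to 3.32 ± 1.14 TPM for the second and from 4.02 ± 1.24 to 9.71 ± 0.525 for the third, while the nearest named gene, Eipr1, differed by 0.21 (adjusted p = 0.553). Gm15622, which shares exon bases with Bhmt on the other strand, was spread widely: 2.31, 4.39, 26.4 and 6.87 TPM in control livers and 32.0, 77.0, 62.3 and 72.0 in DKO livers. Gm4952, a protein coding model beside Glyat, went from 123 ± 20.8 to 237 ± 30.4 TPM, whereas Glyat had a log2 difference of -0.36 (adjusted p = 0.0758). Of 18 pairs of models less than 100000 bases apart, 17 had the same direction. In the exception, Gm6505 was higher and 1700112D23Rik, around it on the same strand, lower, and Slc2a2, the glucose transporter gene that 1700112D23Rik overlaps, fell by 0.46 (adjusted p = 0.00166).

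**Figure D3:**
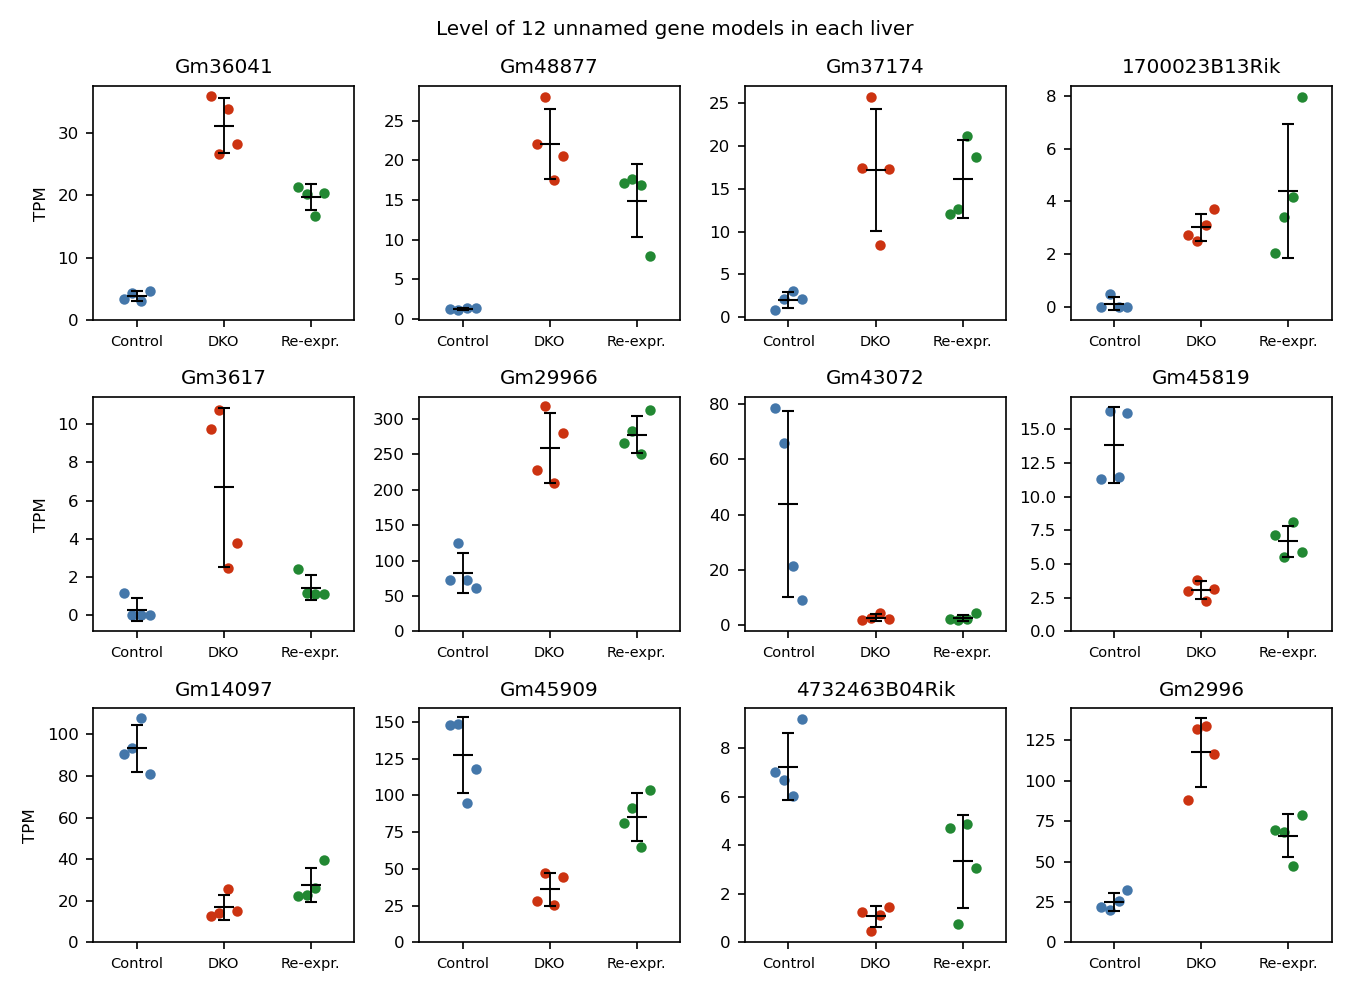
TPM of 12 unnamed gene models in each of 4 control, 4 DKO and 4 re-expression livers (points), with the mean and SD as black bars and a separate vertical scale for each model. Control and DKO points do not overlap in any panel by the selection, and the re-expression points lie near the DKO points in Gm37174 and Gm29966 and between the groups in Gm36041 and Gm2996.

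The largest fall was in Gm43072, within an intron of Elovl6, a fatty acid elongase gene, on the same strand. It was at 78.7, 66.0, 21.4 and 9.01 TPM in control livers, 1.84, 2.60, 4.44 and 2.13 in DKO livers and 2.33, 1.95, 2.13 and 4.32 in re-expression livers. Control livers 1 and 2 were far above control livers 3 and 4, and all re-expression livers lay with the DKO livers. The DKO mean was 15.9-fold lower than the control mean. Gm35986, on the opposite strand of Elovl6, was at 16.2 ± 3.68, 3.56 ± 3.29 and 3.26 ± 1.91 TPM. Elovl6 itself had a log2 difference of -0.93 and was not called (adjusted p = 0.0893). Further intronic models lay in genes of fat synthesis. Gm38230 in Me1, the malic enzyme gene, was at 26.0, 15.7, 5.71 and 4.29 TPM in control and 0.908 to 2.22 in DKO livers, and Gm37391 in Acaca, an acetyl-CoA carboxylase gene, at 18.9, 8.23, 3.88 and 3.89 and 0.423 to 1.64. In both the control livers again split 1 and 2 from 3 and 4. Me1 differed by -0.23 (adjusted p = 0.554) and Acaca by -0.34 (adjusted p = 0.358), and neither was called.

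Other lower models lay with genes that fell. 4732463B04Rik, which overlaps Acot3 and Acot4 on the opposite strand, both genes of peroxisomal acyl-CoA thioesterases, was at 7.01, 6.67, 6.02 and 9.21 TPM in control livers, 1.27, 0.467, 1.12 and 1.48 in DKO livers and 4.71, 0.751, 4.88 and 3.05 in re-expression livers. The re-expression livers spread from the DKO level to below the controls. Acot3 fell by 2.48 (adjusted p = 0.00108) and Acot4 by 2.12 (adjusted p = 8.37e-05). Acot4 was at 25.8 ± 8.23, 4.95 ± 0.411 and 14.8 ± 2.23 TPM in control, DKO and re-expression livers and rose by 1.40 with re-expression (adjusted p = 0.0261), a call lost without any 1 of the DKO or re-expression livers. Gm45909, within an intron of the carboxylesterase gene Ces1d on the same strand, was at 148, 149, 95 and 118 TPM, then 28.3, 47.0, 25.1 and 44.2, then 81.4, 91.3, 65.0 and 104 in the 3 groups. Only its re-expression and control livers overlapped. Ces1d fell by 0.89 (adjusted p = 0.00416), a call lost with control livers 3 and 4 alone. E230016M11Rik shares exon bases with Gadd45a, a stress response gene that fell by 1.91 (adjusted p = 0.0228), a call lost without control liver 1, without control liver 2, without DKO liver 4, with control livers 3 and 4 alone and with the 8 libraries of the comparison. Gm37666, in an intron of Cers6, was at 5.36 ± 2.79 and 1.72 ± 0.88 TPM, and Cers6, a ceramide synthase gene, fell by 1.27 (adjusted p = 0.0018). Gm44669 lies opposite Ttc23, which fell by 1.16 (adjusted p = 0.000259), and was at 26.6, 23.3, 9.03 and 11.4 TPM in control and 3.27 to 3.84 in DKO livers. Gm11713, at 13.2 ± 2.53 and 4.23 ± 2.92 TPM, and Gm11714, at 25.6 ± 13.1 and 9.55 ± 1.69, both lie opposite Pitpnc1, a phosphatidylinositol transfer protein gene that fell by 0.64 (adjusted p = 0.00355).

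Gm8941, a pseudogene, and C730036E19Rik, 254 bases away on the same strand, had similar levels in most livers and stood furthest apart in control liver 3. Gm8941 was at 210, 178, 164 and 139 TPM in control livers, 45.2, 66.2, 47.3 and 54.5 in DKO livers and 55.1, 140, 82.3 and 103 in re-expression livers. C730036E19Rik was at 214, 168, 124 and 135, then 49.6, 57.9, 49.2 and 55.1, then 57.0, 130, 82.9 and 84.4 TPM. The first re-expression liver was near the DKO level and the second the highest of its group in both. The nearest named gene, Hmcn1, 143072 bases away, differed by 0.10 (adjusted p = 0.733). Gm14097, which shares exon bases with Shld1 on the other strand, was at 93.3 ± 11.1, 16.9 ± 5.95 and 27.6 ± 8.14 TPM, and Shld1 had a log2 difference of -0.75 (adjusted p = 0.0582).

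The 10 protein coding models were a mixed group. Gm4952 is described above, and Gm5096 was at 94.1 ± 28.2 TPM in control, 173 ± 31.7 in DKO and 126 ± 47.6 in re-expression livers. F830016B08Rik, beside Iigp1, a gene of the interferon-induced GTPases, was at 99.8 ± 34.6, 59.5 ± 6.54 and 68.4 ± 14.5 TPM. Gm6665, inside Wdr33 on the opposite strand, was at 9.14 ± 1.01, 24.6 ± 2.45 and 19.7 ± 2.37 TPM, and Wdr33 had a log2 difference of -0.09 (adjusted p = 0.559). Gm7694, which shares exon bases with Nos1ap on the same strand, was at 10.7 ± 3.29, 4.15 ± 0.699 and 4.75 ± 1.88 TPM. Nos1ap, with which it may share reads, fell by 0.79 (adjusted p = 0.0428), a call lost in 14 of the 19 alternatives. Of the remaining 5 models, Gm6525 and D930048N14Rik were higher, and Gm5150, 1700020D05Rik and D130043K22Rik lower, all with mean levels under 9 TPM in each group. Gm6525 lies opposite Trim2, a ubiquitin ligase gene, which rose by 1.01 (adjusted p = 0.000466).

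A few more pairs of a model and a called gene were singled out after their values were seen. Gm19437, with 1 read per library on average, lies opposite Pyroxd2, which rose by 1.06 from control to DKO livers (adjusted p = 0.000837) and fell by 0.99 with re-expression (adjusted p = 0.0215), a call lost without any 1 of the DKO livers or of re-expression livers 1, 2 and 4. Gm12217 was at 4.8 ± 2.4 TPM in control, 1.27 ± 0.455 in DKO and 0.819 ± 0.0329 in re-expression livers and lies 10530 bases from Slc22a5, the carnitine transporter gene, which fell by 0.90 (adjusted p = 0.00164). Gm13613, better read with 41.5 reads per library, shares exon bases with Abcb11, the bile salt export pump gene, and was at 6.98 ± 2.23, 15.8 ± 4.62 and 18.7 ± 1.62 TPM. Abcb11 rose by 0.33 (adjusted p = 0.0193), a call lost without DKO liver 1, without DKO liver 4 and with control livers 3 and 4 alone.

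Pseudogenes were compared with the named coding gene whose transcripts share the most of their 31-letter words. That gene had to share at least 20% of them and be tested, and at most 10 coding genes could share words. By these limits 37 of the 58 had such a gene. These 37 had 35 distinct coding genes, of which 5 were called, 14.3% beside 6.29% of all named genes. All 5 were higher, beside 3.54% of named genes called higher. The median log2 difference of the 35 was 0.08. The same livers chose the pseudogenes, so these counts are not independent of the choice. Reads of a pseudogene and of its coding gene may be split between them, so these levels are uncertain. Gm2996 shares 64.3% of its words with Rnf125, a ubiquitin ligase gene, and was at 22.2, 19.9, 25.7 and 32.5 TPM in control livers, 87.9, 132, 134 and 117 in DKO livers and 69.8, 68.0, 47.6 and 78.7 in re-expression livers. The 3 groups did not overlap. Rnf125 rose from 168 ± 13 to 462 ± 56.9 TPM (log2 difference 1.45, adjusted p = 6.24e-06). Gm8834 shares 59.1% with Gstm3, a glutathione transferase gene, and went from 29.4 ± 3.81 to 91.6 ± 12.8 TPM, and Gstm3 rose by 1.99 (adjusted p = 0.00139). Gm37981 shares 25.7% with Clpx, the unfoldase of a mitochondrial protease, and was at 1.28 ± 0.0905 TPM in control, 16.1 to 32.4 in DKO and 8.93 to 11.8 in re-expression livers. Clpx rose by 2.64 (adjusted p = 8.46e-08), and it is also the nearest gene of another pseudogene, Gm19219, 5516 bases away. Pgk1, closest to Gm7466, rose by 0.36 (adjusted p = 0.0157), a call lost without DKO liver 4, and Cox5a, closest to Gm11633, by 0.35 (adjusted p = 0.0395), a call lost in 9 of the 12 fits that left out 1 library.

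Copies of ribosomal protein genes made up 11 of the 37, with 8 higher and 3 lower in DKO livers. None of their 9 distinct coding genes was called by limma, and their log2 differences ran from -0.05 to 0.46. Rpl7a, closest to Gm4786, Gm16477 and Gm14853, all higher, was at 459 ± 27.5 TPM in control and 459 ± 28.9 in DKO livers. Summed over the 1118 pseudogenes that were not chosen, levels ran from 16761 to 17972 TPM in control and from 17199 to 21193 in DKO livers (exact two-sided permutation p = 0.0857).

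**Figure D4:**
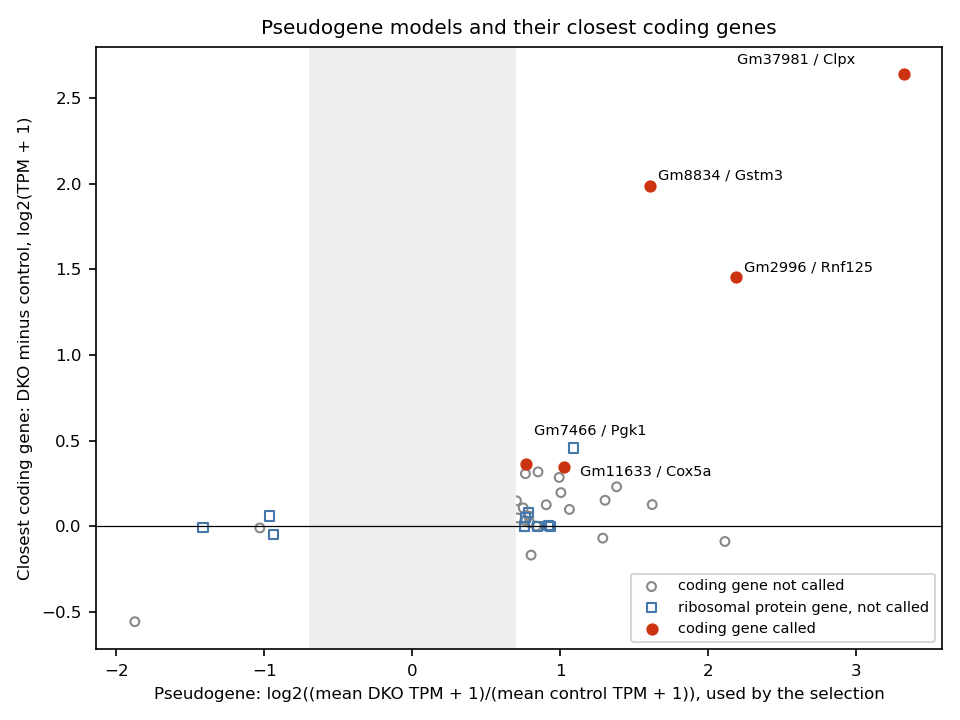
Log2 ratio of each pseudogene model (horizontal, used by the selection) against the log2 difference of its closest coding gene, DKO minus control (vertical), with red points for coding genes with adjusted p under 0.05 and squares for ribosomal protein genes. The 5 red points all lie to the upper right, and the squares lie between -0.05 and 0.46.

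Re-expression of REV-ERBalpha was compared with both other groups. These comparisons share the DKO or control livers that chose the models, so their counts are not independent of the choice. Between re-expression and DKO livers limma called 1 of the 176 models, higher with re-expression, beside a background of 0.0724% of all genes (0.0278% higher and 0.0446% lower), and 64 (36.4%) had an unadjusted p under 0.05, beside 6.19% of all genes. The model was Gm18425, a pseudogene opposite Slc16a12, at 11.8, 19.1, 14.1 and 11.9 TPM in control livers, 4.76, 4.73, 3.76 and 3.32 in DKO livers and 9.53, 10.6, 8.71 and 14.2 in re-expression livers. Re-expression and control livers overlapped and both lay above the DKO livers. The rise was 1.18 on the log2 scale (SE 0.18, adjusted p = 0.0484) and was lost in 11 of the 12 fits that left out 1 library, with adjusted p from 0.032 to 0.17 over all alternatives. Slc16a12, which encodes a transporter of the monocarboxylate family, fell by 1.03 between control and DKO livers (adjusted p = 0.000357) and differed by 0.34 between DKO and re-expression livers (adjusted p = 0.549). voom on recovered reads called 4 models: 1810058I24Rik, D630024D03Rik, Gm45909 and Gm36041. In the authors' deposited table, the numbered comparison whose fold changes followed re-expression against DKO gave adjusted p = 0.00102 for 1810058I24Rik, 5.77e-05 for D630024D03Rik and 0.0063 for Gm36041, 3 of the 122 models with a value there, beside 72 of 14539 genes (0.495%). 1810058I24Rik was at 60.9 ± 6.96 TPM in control, 34.7 ± 1.70 in DKO and 50.6 ± 2.60 in re-expression livers. Its DKO livers lay below both other groups, and re-expression and control livers overlapped narrowly.

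Re-expression and DKO values did not overlap in 47 of the 176 models, 26.7% beside 4.25% of all genes. Between re-expression and control livers, values did not overlap in 83 models, 47.2% beside 7.28%, and 38 models were called, beside a background of 1.82%. Of the 38, 26 were higher models that were higher in re-expression than in control livers (background 1.16%), and 12 were lower models that were lower (background 0.663%). Since the same control livers chose the models, nothing is read from these directions. With any 1 library left out 22 of the 38 stayed called, and 18 stayed called in every alternative. Gm29966 had a log2 difference from control of 1.79 (adjusted p = 0.000751), Gm37174 of 2.52 (adjusted p = 0.00213), 1700023B13Rik of 2.18 (adjusted p = 0.00282) and Gm14097 of -1.75 (adjusted p = 0.00184). The nearest gene also stayed apart from control beside some of the 38, such as Avpr1a by 1.45, Insig2 by 1.80 and Cdkn1a by 4.31 (adjusted p = 1.28e-05, 0.000162 and 2.39e-08). It was not called beside others, such as Shld1 beside Gm14097, Abcb11 beside Gm13613 and Wdr33 beside Gm6665 (limma adjusted p = 0.233, 0.132 and 0.951). Calls over all nearest genes of the 38 were not counted in this comparison.

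**Figure D5:**
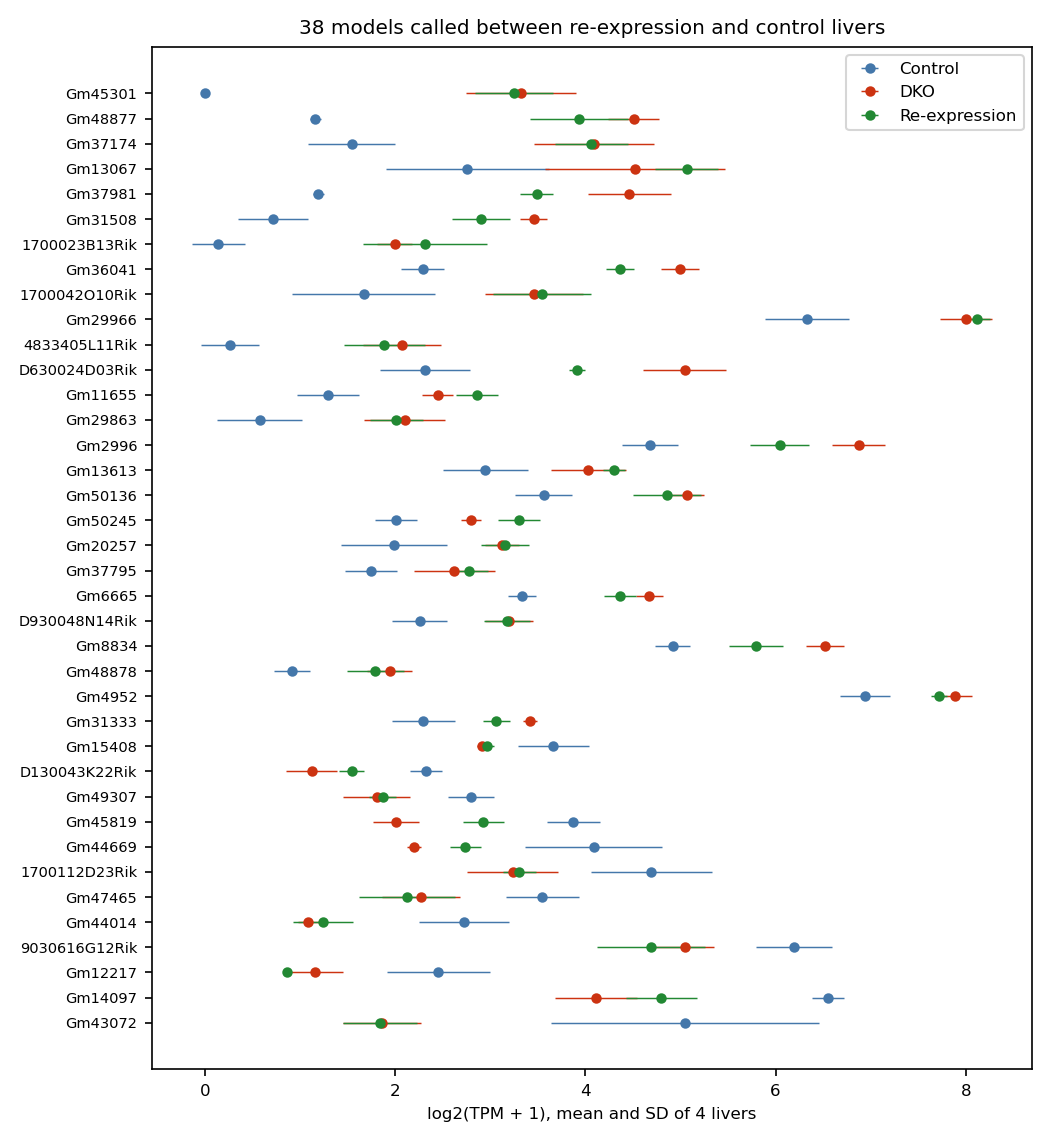
Mean log2(TPM + 1) with SD over 4 control, 4 DKO and 4 re-expression livers for the 38 models with adjusted p under 0.05 between re-expression and control livers, ordered by that difference. The re-expression points lie on the DKO side of the control points in all 38, where the same control livers chose the models.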

How the data were processed

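The samples were 12 mouse livers in 3 groups of 4, labelled as separate biological replicates, with 1 ug of total RNA each in a strand-specific total RNA kit, per the labels' protocols. The submitters' processing notes name, with no role or order, the build mm10 and the tools STAR 2.7.1a, featureCounts 2.0.1, DESeq2 1.36.0, SAMtools 1.9 and bcl2fastq 2.17. The TPM values were computed and deposited by the authors. The table also held log2 fold changes of 3 numbered comparisons deposited by the authors, which the file headers do not name, and adjusted p-values deposited by the authors. A comparison was matched to groups by the correlation of its fold changes with the differences computed here.

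The models and lists were chosen with earlier results of these data known. The 17957 genes that averaged 1 TPM or more were tested with limma 3.58.1 in R 4.3.3 on log2(TPM + 1) with a variance trend: 3 group means, 9 residual degrees of freedom, two-sided, Benjamini-Hochberg adjustment over all tested genes, threshold 0.05. Such a fold change understates that of genes with little RNA. "Rose", "fell" and "called" refer to this test for named genes. For the 176 models higher and lower describe the selection. The limma p-values set each group difference against the spread between livers within groups, which limma moderates across genes. TPM times length less 199 was a whole multiple of 1 step in 100% of values within 0.01 reads, which gave reads per library. The procedure was tested on simulated reads. Full values were given to models with the largest ratios, the highest levels or a call. Of the 176 IDs 175 matched the GENCODE annotation with version and 176 without. One gene and the model beside it are not reported here. The word comparison of pseudogenes was added after the data were seen. Other software was Python 3.11.15, pandas 2.3.3, numpy 2.4.6, scipy 1.17.1 and matplotlib 3.10.9.

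Alternatives were a pseudocount of 0.1, no filter, median-ratio scaling, 8 libraries, the replicate number as a block, voom and each library left out. Control livers 3 and 4 alone was added after the data were seen.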

Additional observations from a re-analysis of the deposited data

Results flagged for a closer look

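Among 34 models checked, 102 groups of 4 livers were checked for a liver far from the others by Dixon's limit, and 8 groups had one. Chance gives about 1 in 20 groups for continuous normal values, which levels from a few reads are not. A group with reads in 1 liver and 0 in the others always passes the limit, so no excess is read from the 8 groups. Re-expression liver 4 had Gm48877 at 7.96 TPM, with the next at 16.8, and Gm43072 at 4.32 TPM, with the next at 2.33. Re-expression liver 1 had Gm3617 at 2.41 TPM, with the next at 1.15, and re-expression liver 2 had 1700042O10Rik at 18.7 TPM, with the next at 9.79. Control liver 1 had Gm3617 at 1.17 TPM where the other controls had 0. Control liver 2 had 1700023B13Rik at 0.468 TPM where the other controls had 0, and Gm29966 at 124 TPM, with the next at 72.2. DKO liver 3 had Gm14097 at 25.7 TPM, with the next at 14.9.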

How the results depend on the processing

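The rule found 176 models as given, 110 with a log2 limit of 1, 108 with a mean of at least 5 TPM and 295 with control livers 3 and 4 alone. Leaving out 1 control or DKO liver gave 193 to 291, the latter without control liver 4. Between re-expression and DKO livers 1 model was called: 0 with no filter on low values, 4 with voom, 2 with control livers 3 and 4 alone, and 0 to 1 leaving out 1 library. The 1 model called with the 8 libraries of the comparison was not Gm18425. Between re-expression and control livers 38 were called, 24 with 8 libraries and 24 to 39 leaving out 1 library, the lowest without re-expression liver 4. Of 41 called nearest genes, 10 did not overlap their model, leaving out 1 library gave 34 to 41, and 27 were called in every alternative. Of 5 coding genes of pseudogenes, 3 were called among those sharing at least 50% of words, and 3 to 6 leaving out 1 library, the lowest without DKO liver 4. Over all genes 958, 13 and 327 were called between DKO and control, re-expression and DKO, and re-expression and control livers. These became 559, 20 and 162 with 8 libraries. They became 573 to 922, 5 to 15 and 175 to 332 leaving out 1 library. With voom the last pair of counts became 34 and 537, and with control livers 3 and 4 alone the counts of DKO against control and of re-expression against DKO became 583 and 23. The half-site in place of the full element was in 21.4% of promoters. No call reversed.

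Whether replicate numbers pair the livers was not settled. Correlations of deviations ran from -0.0688 to 0.137 between same-numbered livers and from -0.126 to 0.0876 between differently numbered livers. Same-numbered control and re-expression livers had 0.137, 0.0384, 0.0699 and 0.0879. Same-numbered pairs that included a DKO liver were all negative. With the replicate number as a block, 1 model, not Gm18425, and 28 models were called in the comparisons of re-expression with DKO and with control livers, 38 nearest genes and 5 coding genes of pseudogenes were called, and all genes gave 778, 8 and 209. Depth limits the rarely read models most, since 65 of the 176 averaged under 10 reads per library, and a level of 0 there is not absence.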
